A study of Mus musculus with 6 samples.

Results

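The 10 genes described here encode the heat shock proteins and chaperones Hspa1a, Hspa1b, Hspa8, Hsp90aa1, Hsp90ab1, Dnajb1, Hsph1, Hspb1, Hspe1 and Hspd1. They were taken by name from the 54648 gene symbols of the deposited table, with no threshold on a measured value. All 10 were listed and all 10 passed the filter on low counts. Peritoneal cells of C57BL/6 mice, 3 WT and 3 FOXO3 KO, were sequenced by RNA-seq; the mice were 6 to 8 weeks old. FOXO3 KO mice were homozygous for the knockout of FOXO3, a forkhead transcription factor, WT mice came from the same genotyped litters, and both sexes were used. All mice, WT included, had been injected in the abdomen with 3% thioglycollate, an irritant, and the cells were harvested after 4 days. The harvested cells were mostly macrophages per the study's methods, which describe no sorting, and each library was named by its group and replicate (WT 1 to 3, FOXO3 KO 1 to 3). The study compared the groups to find which transcripts of these cells depend on FOXO3, and the genes of protein folding are compared here in the same way.

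Heat shock proteins bind unfolded or newly made proteins and help them to fold, to assemble or to be degraded. HSP70 proteins work with J domain proteins, which deliver substrates, and with nucleotide exchange factors, which release them; HSP90 acts later on partly folded clients such as kinases and steroid receptors, small heat shock proteins hold unfolded proteins without ATP, and HSP60 with HSP10 forms the folding chamber of mitochondria. In unstressed cells HSP70 and HSP90 hold the heat shock factor HSF1 inactive. Under heat or other proteotoxic stress HSF1 forms trimers, binds repeats of the unit NGAAN in promoters and switches on the inducible members, first of all Hspa1a and Hspa1b, while Hspa8 and Hsp90ab1 are made at all times. In macrophages these chaperones are known for stress tolerance and for client proteins of inflammatory signalling.

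Promoters of some stress-inducible members are shown for their motifs and for the near identity of the Hspa1a and Hspa1b promoters. No relation of these to the values that follow was tested. RefSeq promoter windows of GRCm38.p6, from 250 bases before to 50 bases after an annotated start, were given for 7 of the 10 genes, and none was used for Hspa8, Hsp90aa1 and Hsp90ab1. The files were made on mm10 per the submitters' processing notes, which is the same assembly. Pairs of heat shock units were searched as GAANNTTC or TTCNNGAA, each of which reads the same on both strands, and are in capitals. The 250 bases before the start of Hspa1a lie at chr17:34972157-34972406 on the minus strand, and those of Hspa1b at chr17:34959239-34959488 on the same strand, both upstream of any annotated exon.
Hspa1a: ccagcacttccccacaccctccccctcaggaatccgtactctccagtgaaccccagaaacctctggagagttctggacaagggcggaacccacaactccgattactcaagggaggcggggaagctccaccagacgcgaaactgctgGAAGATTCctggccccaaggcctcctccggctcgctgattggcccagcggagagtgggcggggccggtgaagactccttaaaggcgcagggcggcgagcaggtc
Hspa1b: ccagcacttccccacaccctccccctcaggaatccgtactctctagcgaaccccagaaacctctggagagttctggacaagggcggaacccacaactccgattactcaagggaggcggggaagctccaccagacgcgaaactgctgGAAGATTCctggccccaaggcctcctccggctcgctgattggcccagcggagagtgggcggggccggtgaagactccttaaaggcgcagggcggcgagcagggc
They differed at 3 of 250 bases, and each held 1 pair of units, which began 104 bases before the start.

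The stretch of the Hspb1 promoter with both of its pairs lies at chr5:135887782-135887849 on the plus strand, from 137 to 70 bases before the start. The Hspe1 stretch is the 30 bases at chr1:55088053-55088082 on the plus strand, from 95 to 66 bases before its start, and it lies in an annotated exon of the Hspd1 isoform Hspd1-202.
Hspb1: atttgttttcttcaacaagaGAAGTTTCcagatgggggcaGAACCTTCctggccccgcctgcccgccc
Hspe1: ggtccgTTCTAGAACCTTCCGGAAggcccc
In Hspe1 the pairs overlap to an unbroken run of alternating units, whereas in Hspb1 they stand apart. Of the 7 genes with a window, 6 held at least 1 pair of units, compared with 15.1% of 32851 promoter windows of all genes; the GAANNTTC form was in 7.86% and the TTCNNGAA form in 8.52%. A run of 3 alternating units was found in Hspd1, Hspe1 and Hsph1, 3 of the 7 genes, and in 0.603% of all windows. Hspd1 and Hspe1 share the same run, since their windows overlap on opposite strands, and the Hspa1a and Hspa1b windows are nearly alike. These genes are thus not separate cases. The counts are per gene, over 10 windows of the 7 genes, while the shares are per window, so they are not like measures. Dnajb1 held no pair in either of its windows. The FoxO motif GTAAACA, searched on both strands as GTAAACA or TGTTTAC, was in 0 of the 7 genes and in 3.65% of all windows. These matches describe letters in a window and not bound sites.

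Counts per library were between 28083572 and 36424331. The unit of expression is CPM, the counts of a gene scaled to 1 library size common to all, corrected by TMM factors between 0.936 and 1.10. The check of the labels came first. Foxo3 ranged from 73.1 to 117 CPM over the WT libraries and was at 4.71 and 4.29 CPM for FOXO3 KO 1 and 3. The library labelled FOXO3 KO 2 had 104 CPM. Each result is therefore given over all 6 libraries as labelled and again without that library. The libraries also divided by Xist, the RNA of the inactive X chromosome, which was high in WT 3 (871 CPM) and FOXO3 KO 3 (1130 CPM) and at most 0.177 CPM in the other 4. WT 3 also held the Y-linked Ddx3y at 23.7 CPM, beside 2.37 CPM for FOXO3 KO 3 and 98.7 to 123 CPM elsewhere, and the sources used here do not say whether a library was made from 1 mouse or several. The 12 macrophage markers summed to 20711, 24556 and 15986 CPM across WT 1 to 3, against 20748, 22825 and 19372 CPM across FOXO3 KO 1 to 3. WT 3 was the lowest and FOXO3 KO 3 the next lowest, the libraries with high Xist. B cell markers summed to 5798 CPM in WT 3 and to at most 1524 CPM elsewhere. Neutrophil markers summed to between 138 and 229 CPM in WT and to 507, 234 and 432 CPM across FOXO3 KO 1 to 3. Red blood cell markers summed to 24.5, 9.63 and 27.0 CPM in the WT and to 117, 9.23 and 182 CPM in the FOXO3 KO libraries, in the order of their numbers. The part of these cells in the values below was not tested. Where markers of another cell type differed, fewer cells of a type and less RNA per cell cannot be told apart in these bulk samples.

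None of the 10 genes differed between the groups at an FDR under 0.05 combined with a fold change over 1.5. The quasi-likelihood test of edgeR, adjusted by Benjamini-Hochberg, called 0 of 10 over all 6 libraries, where it called 0% of 15608 genes tested. It called 0 of 10 without the library labelled FOXO3 KO 2, where it called 0% of 16217 genes. By the same test Foxo3 itself was not called either. Its log2 fold change was -1.40 (adjusted p = 0.859) and, without that library, -4.46 (adjusted p = 0.105). A count of 0 by this test therefore says little on whether the 10 genes differed. The study, at the same thresholds, reports many genes as higher and many as lower in FOXO3 KO. DESeq2 without that library called Foxo3 (adjusted p = 8.31e-44) and 0 of the 10, beside 0.666% of all genes. Over all 6 libraries edgeR's likelihood ratio test called 0 of 10 beside 0.698% of all genes, DESeq2 called 0 of 10 beside 0.794%, and limma-voom called 0 of 10 beside 0%. With p left unadjusted (under 0.05) and the fold change kept, Hspb1 alone was higher in FOXO3 KO over all 6 libraries (1 of 10, against 3.28% of all genes tested), and no member was lower (0 of 10, against 0.999%). When the library labelled FOXO3 KO 2 was left out, no member passed in either direction, against 2.71% of all genes higher and 0.9% lower. Without WT 3, the library with both Xist and Ddx3y, the quasi-likelihood test again called 0 of 10, beside 0 of all 15788 genes tested. The median log2 fold change of the 10 genes was then 0.15, and that of Hspa1a was 0.19.

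**Figure D1:**
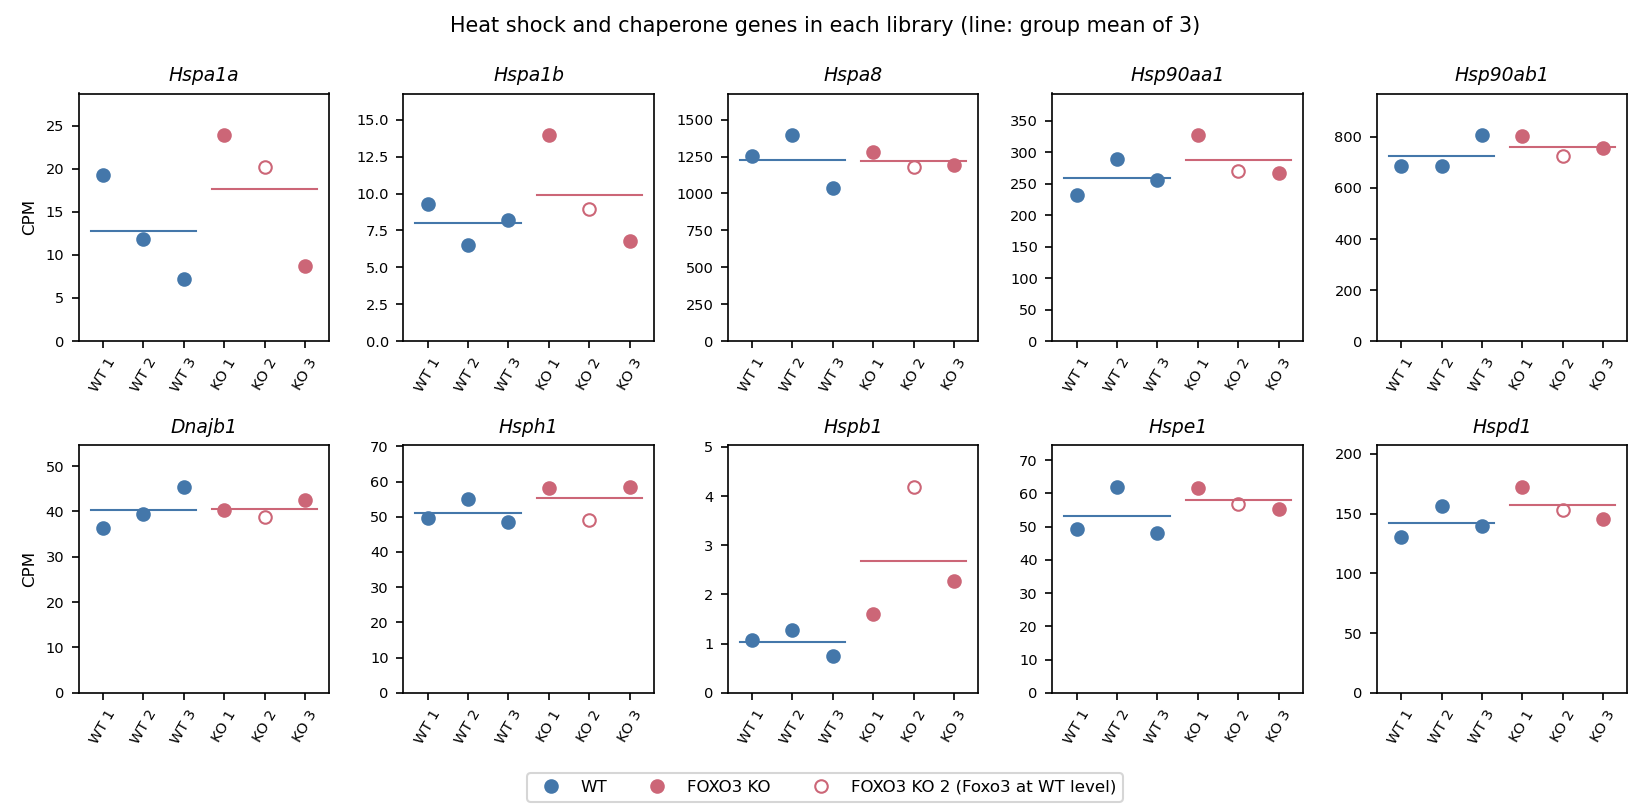
Expression of the 10 genes in each library in CPM on linear axes that start at 0; points are libraries (blue for WT, red for FOXO3 KO, open for the library labelled FOXO3 KO 2, whose Foxo3 was at the WT level) and lines are means of 3. The groups overlap in every panel but that of Hspb1, where WT lies between 0.755 and 1.27 CPM and FOXO3 KO between 1.59 and 4.20 CPM.

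A missed threshold leaves room for a difference, so the intervals are given as well. The 95% interval of the fold change lay within 1.5-fold in either direction for 7 of the 10 genes, compared with 37.2% of all genes tested. The exceptions were Hspa1a, Hspa1b and Hspb1, the members with the fewest counts. The shares over all genes, here and for the lists below, were not matched for the counts of a gene. Without the library labelled FOXO3 KO 2 the intervals were wider, and 4 of 10 lay within 1.5-fold against 25.5% of all genes; these were Dnajb1, Hsph1, Hspe1 and Hspd1. The fitted log2 fold change was above 0 for 9 of 10 genes over all 6 libraries, against 48.8% of all genes, and for 10 of 10 without that library, against 47.6%. Hspa8 was the exception. The sizes were small. The median log2 fold change of the 10 genes was 0.13, beside -0.01 over all genes tested, and it was 0.18 beside -0.02 without the library labelled FOXO3 KO 2. These genes share libraries and are not replicates, so no test was made on the list. In sum the 10 genes took between 0.244% and 0.263% of the counts of a WT library and between 0.244% and 0.270% of those of a FOXO3 KO library, so the groups overlapped.

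**Figure D2:**
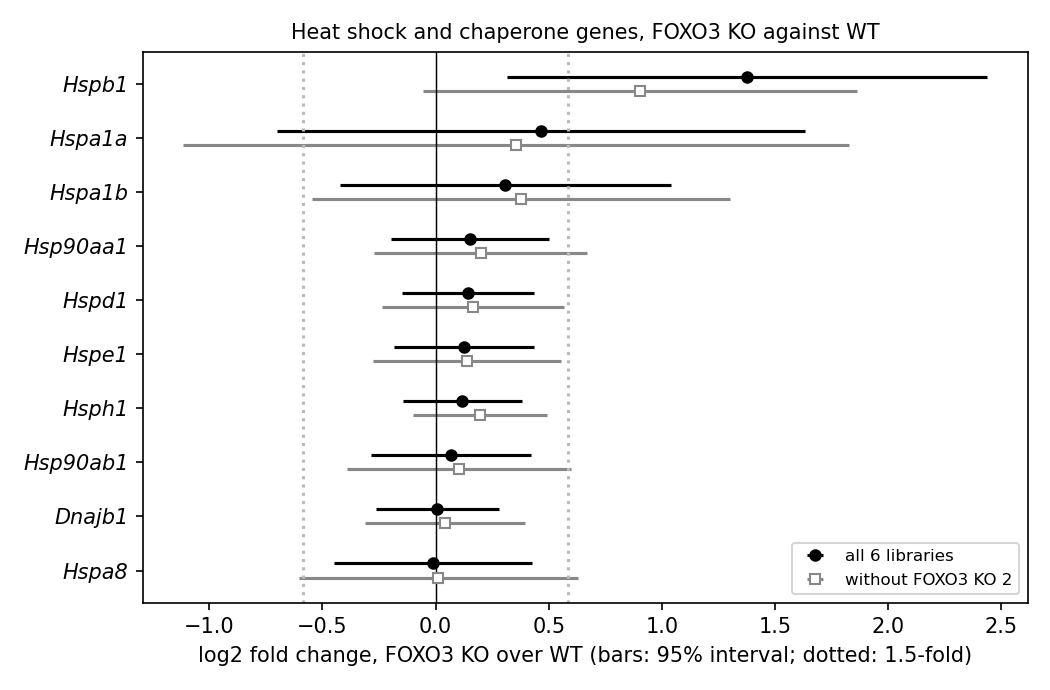
Log2 fold change of FOXO3 KO over WT for the 10 genes with 95% intervals, over all 6 libraries (filled) and without the library labelled FOXO3 KO 2 (open), with dotted lines at a fold change of 1.5. Hspb1 is the farthest to the right, at 1.38 and 0.91, and Hspa8 lies at -0.01 and 0.01.

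Levels between genes were compared per length, as CPM per kb of the longest annotated coding transcript. Hspa8, the constitutive cytosolic HSP70, was the highest at 511 CPM per kb on average over 6 libraries, followed by Hsp90ab1 at 295, Hsp90aa1 at 83.6, Hspe1 at 71.6 and Hspd1 at 61.8. Each of these 5 exceeded the next gene in the order in all 6 libraries. Hsph1 and Dnajb1 followed at 14.0 and 13.5 CPM per kb, and Hsph1 exceeded Dnajb1 in only 4 of 6 libraries. The lowest 3 were Hspa1a at 5.13, Hspa1b at 3.20 and Hspb1 at 2.003 CPM per kb. Hspa1a was above Hspa1b in 5 of 6 libraries, and Hspa1b above Hspb1 in 4 of 6. The inducible HSP70 genes thus stood far below their constitutive relative in both groups: Hspa8 was 513 in WT and 509 CPM per kb in FOXO3 KO, and Hspa1a was 4.31 and 5.95 CPM per kb.

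Hspa1a (GRCm38 chr17:34969190-34972156, minus strand) encodes the stress-inducible HSP70 and is among the genes that HSF1 raises most upon heat. It was 19.3, 11.9 and 7.18 CPM across WT 1 to 3, against 24.0, 20.3 and 8.75 CPM across FOXO3 KO 1 to 3. FOXO3 KO 1 was the highest and WT 3 the lowest, and the groups overlapped. Averaged by group it was 12.8 ± 6.10 CPM (SD, n = 3) for WT against 17.7 ± 7.93 CPM (SD, n = 3) for FOXO3 KO, a fold change of 1.38 with a 95% interval from 0.615 to 3.10 (edgeR quasi-likelihood test, adjusted p = 0.871). Leaving out the library labelled FOXO3 KO 2 gave a fold change of 1.28 with an interval from 0.462 to 3.55. Hspa1a varied 3.33-fold between its highest and lowest library, and its SD within groups on the log2 scale was 0.72, the highest of the 10 genes, whose median was 0.16 beside 0.24 over all genes tested.

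Hspa1b (chr17:34956436-34959238, minus strand) encodes a protein almost identical to that of Hspa1a from the neighbouring gene on chromosome 17. It was 9.28, 6.53 and 8.19 CPM across WT 1 to 3, against 14.0, 8.94 and 6.81 CPM across FOXO3 KO 1 to 3. FOXO3 KO 1 was again the highest, while the other FOXO3 KO libraries lay within the WT range. The fold change was 1.24 with a 95% interval from 0.746 to 2.06 (edgeR quasi-likelihood test, adjusted p = 0.866), and 1.30 with an interval from 0.686 to 2.47 without the library labelled FOXO3 KO 2. It rested on FOXO3 KO 1, for without that library the log2 fold change of Hspa1b was -0.02.

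Reads from this pair cannot be fully told apart. Of the stretches of 76 bases, the read length, in the Hspa1a transcript, 52.5% were also in a transcript of Hspa1b, and 55.6% of those of Hspa1b were in one of Hspa1a. The ratio of Hspa1a to Hspa1b was 2.08, 1.82 and 0.877 in WT 1, 2 and 3 and 1.71, 2.27 and 1.29 in FOXO3 KO 1, 2 and 3. The summed pair does not depend on how reads were split between both genes. No gene outside the 10 that shared sequence with either had more than 91 deposited counts in a library. Hspa1a had at least 257 and Hspa1b at least 185. Counts of such copies depend on how reads were assigned, so they do not show where shared reads came from. The sum was 28.6, 18.4 and 15.4 CPM across WT 1 to 3, against 37.9, 29.2 and 15.6 CPM across FOXO3 KO 1 to 3. FOXO3 KO 1 and 2 were above every WT library and FOXO3 KO 3 lay just above the lowest. The log2 fold change of the sum was 0.41 (SE 0.38, edgeR quasi-likelihood test, adjusted p = 0.863), and 0.37 (SE 0.46) without the library labelled FOXO3 KO 2.

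The lowest Hspa1a values were those of WT 3 and FOXO3 KO 3, the libraries with high Xist. A fit within the 4 libraries with low Xist was added after the data were seen. Its log2 fold change was 0.51 for Hspa1a (unadjusted p = 0.0911, adjusted p = 0.801) and 0.54 for Hspa1b (unadjusted p = 0.115, adjusted p = 0.824) by edgeR's quasi-likelihood test. There the library labelled FOXO3 KO 2 is 1 of the 2 FOXO3 KO libraries. The high-Xist libraries were 1 of each group and gave 7.18 and 8.75 CPM for Hspa1a. The 12 immediate early genes, whose RNA rises within minutes when cells are handled, were also lowest in these libraries. Their sum was 1306, 1316 and 790 CPM across WT 1 to 3, against 1425, 1285 and 1075 CPM across FOXO3 KO 1 to 3, and Fos was 153, 126 and 45.4 CPM and 169, 115 and 80.9 CPM. Of the 12 genes, 1 was higher in FOXO3 KO at an unadjusted p under 0.05 with a fold change over 1.5, against 3.28% of all genes tested. None was lower. Without the library labelled FOXO3 KO 2, 0 were higher, against 2.71% of all genes. The sum of the macrophage markers given above was lowest in WT 3 and FOXO3 KO 3 too. The part of the immediate early genes or of these markers in the values of Hspa1a was not tested.

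**Figure D3:**
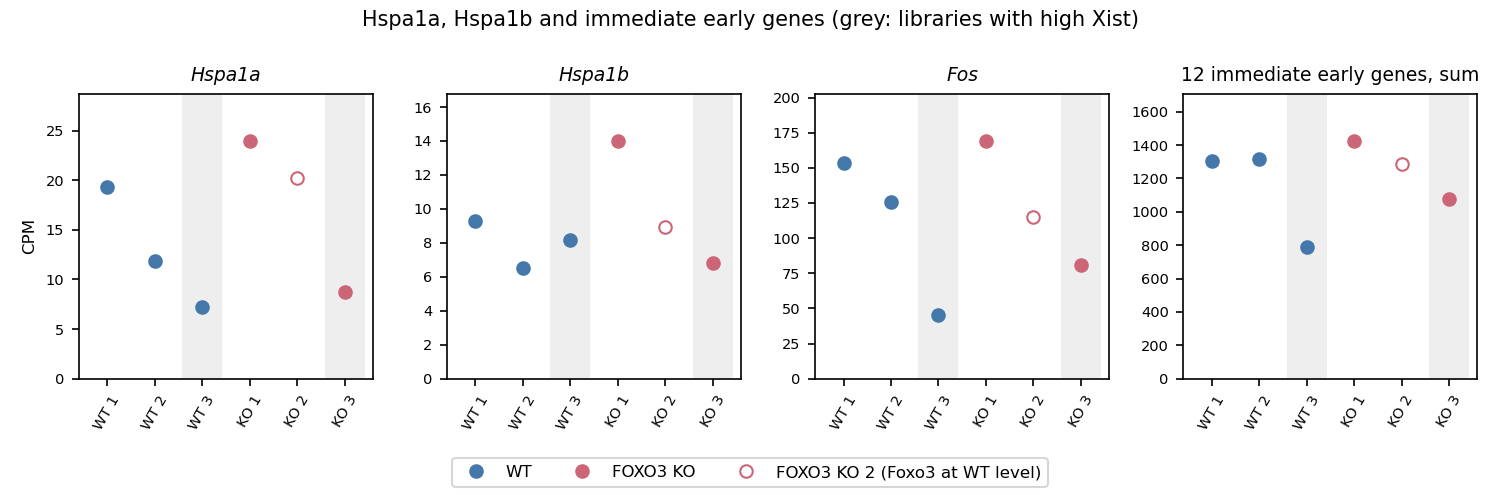
Hspa1a, Hspa1b, Fos and the sum of 12 immediate early genes in each library in CPM on linear axes, with the libraries of high Xist on grey and the library labelled FOXO3 KO 2 as an open point. Hspa1a, Fos and the sum are lowest in WT 3 (7.18, 45.4 and 790 CPM) and next lowest in FOXO3 KO 3 (8.75, 80.9 and 1075 CPM), while Hspa1b is lowest in WT 2 (6.53 CPM).

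The genes outside the list whose pattern was most like the pair were found by Pearson's r of log2 expression with the mean of the scaled values of Hspa1a and Hspa1b, over 6 libraries and 9280 genes with a mean of at least 10 CPM. They were Hpf1 (r = 0.98), Upf3a (r = 0.96), Maip1 (r = 0.95), Ppig (r = 0.94) and Sec63 (r = 0.92). With 6 points and this many genes, high values of r arise for some genes in any data, and the ranges were narrow, with Hpf1 between 29.8 and 35.5 CPM.

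Hspa8 (chr9:40800984-40810087, plus strand) encodes HSC70, the constitutive partner that folds new proteins, uncoats clathrin vesicles and carries substrates of chaperone-mediated autophagy. It was 1251, 1398 and 1039 CPM across WT 1 to 3, against 1282, 1177 and 1195 CPM across FOXO3 KO 1 to 3. The 3 FOXO3 KO libraries all lay between the lowest and the highest WT library. The fold change was 0.991 with a 95% interval from 0.732 to 1.34, and 1.01 with an interval from 0.658 to 1.55 without the library labelled FOXO3 KO 2. Of its stretches of 76 bases, 68.3% were also in transcripts of 11 other genes, mostly the processed copy Gm15459. Among genes outside the 10 that shared sequence with Hspa8, none had more than 101 deposited counts in a library. Hspa8 had at least 32258. These counts depend on how reads were assigned, so they do not show where shared reads came from.

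Hsp90aa1 (chr12:110690605-110702728, minus strand), the more inducible of the cytosolic HSP90 genes, was 233, 290 and 256 CPM across WT 1 to 3. It was 328, 270 and 268 CPM across FOXO3 KO 1 to 3. FOXO3 KO 1 was the highest library, the other FOXO3 KO libraries were below WT 2, and the groups overlapped. The fold change was 1.11 with a 95% interval from 0.872 to 1.42, and 1.15 with an interval from 0.829 to 1.59 without the library labelled FOXO3 KO 2. Hsp90ab1 (chr17:45567775-45573271, minus strand), the constitutive gene, was 685, 686 and 809 CPM across WT 1 to 3, against 804, 724 and 756 CPM across FOXO3 KO 1 to 3. Its highest library was WT 3 and its SD within groups on the log2 scale, 0.11, was the lowest of the 10 genes. The fold change of Hsp90ab1 was 1.05 with an interval from 0.819 to 1.34, and 1.07 with an interval from 0.761 to 1.52 without that library.

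Dnajb1 (chr8:83608193-83612653, plus strand) encodes HSP40, the J domain partner that drives the ATPase of HSP70, and it is a strong target of HSF1. It was 36.2, 39.4 and 45.5 CPM across WT 1 to 3, against 40.4, 38.8 and 42.6 CPM across FOXO3 KO 1 to 3. All 3 FOXO3 KO libraries lay within the WT range, and the fold change was 1.01 with a 95% interval from 0.832 to 1.22, or 1.03 with an interval from 0.805 to 1.32 without the library labelled FOXO3 KO 2. Unlike the Hspa1 pair, Dnajb1 shared no stretch of 76 bases with another gene, nor did Hsph1. The share of stretches also in other genes was 52.9% for Hsp90aa1, 33.3% for Hspd1, 28.8% for Hspe1 and 0.654% for Hsp90ab1.

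Hsph1 (chr5:149614287-149636376, minus strand) encodes HSP110, a nucleotide exchange factor that frees substrates from HSP70. It was 49.6, 54.9 and 48.5 CPM across WT 1 to 3, against 58.3, 49.2 and 58.6 CPM across FOXO3 KO 1 to 3. FOXO3 KO 1 and 3 exceeded every WT library, and the library labelled FOXO3 KO 2 fell among them. The fold change was 1.09 with a 95% interval from 0.904 to 1.30 (edgeR quasi-likelihood test, adjusted p = 0.863). Without the library labelled FOXO3 KO 2 it was 1.15 with an interval from 0.934 to 1.41 (adjusted p = 0.994 from the same edgeR test). Hsph1 and Hspb1 were the 2 of 10 genes with both of the other FOXO3 KO libraries above every WT library, which 11% of all genes tested showed.

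Hspd1 (chr1:55077835-55088243, minus strand) encodes mitochondrial HSP60 and Hspe1 (chr1:55088132-55091307, plus strand) its lid, HSP10. The genes stand head to head on chromosome 1, Hspd1 on the minus and Hspe1 on the plus strand, with 112 bases of annotated overlap, and the run of heat shock units shown above lies between the start of Hspe1 and 1 of the 2 RefSeq starts of Hspd1. Hspd1 was 130, 156 and 140 CPM across WT 1 to 3, against 173, 153 and 146 CPM across FOXO3 KO 1 to 3. Hspe1 was 49.2, 62.0 and 47.9 CPM across WT 1 to 3, against 61.6, 56.7 and 55.2 CPM across FOXO3 KO 1 to 3. The groups overlapped for both genes. The fold change was 1.11 with a 95% interval from 0.903 to 1.35 for Hspd1 and 1.09 with an interval from 0.880 to 1.35 for Hspe1. Leaving out the library labelled FOXO3 KO 2 gave 1.12, with an interval from 0.848 to 1.48, and 1.10, with an interval from 0.826 to 1.47. The ratio of their CPM lay between 2.52 and 2.92 in all 6 libraries, and their Pearson's r over the 6 libraries was 0.88, beside 0.72 for Hspa1a with Hspa1b, both given as descriptions of libraries that share depth and scaling.

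Hspb1 (chr5:135887919-135889563, plus strand), the small heat shock protein HSP25, binds unfolded proteins and actin and is abundant in epithelial, mesothelial and muscle cells. It was the lowest of the 10 genes and the 1 with the greatest fold change. It was 1.08, 1.27 and 0.755 CPM across WT 1 to 3 (39, 36 and 27 counts), against 1.59, 4.20 and 2.28 CPM across FOXO3 KO 1 to 3 (45, 115 and 76 counts). Every FOXO3 KO library lay above every WT library, as 7% of all genes tested did, and the highest was the library labelled FOXO3 KO 2, whose Foxo3 was at the WT level. Averaged by group it was 1.04 ± 0.261 CPM (SD, n = 3) for WT against 2.69 ± 1.35 CPM (SD, n = 3) for FOXO3 KO. The fold change was 2.596 with a 95% interval from 1.24 to 5.42, and a log2 fold change of 1.38 (SE 0.44; edgeR quasi-likelihood test, unadjusted p = 0.0190, adjusted p = 0.763). By exact two-sided permutation p was 0.10, the smallest that 3 libraries against 3 allow. Without the library labelled FOXO3 KO 2 the fold change was 1.87 with an interval from 0.963 to 3.64 (unadjusted p = 0.0599, adjusted p = 0.994 from the same edgeR test). Within the 4 libraries with low Xist the log2 fold change was 1.31. Hspb1 shared 47.1% of its stretches of 76 bases with the pseudogene Hsp25-ps1. No gene that shared sequence with it had more than 4 deposited counts in a library, which also depends on how reads were assigned.

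Markers of mesothelial cells, which line the peritoneal cavity, were higher in the FOXO3 KO libraries, as Hspb1 was. The 7 markers summed to 5.18, 4.48 and 4.50 CPM across WT 1 to 3, against 10.1, 38.6 and 16.1 CPM across FOXO3 KO 1 to 3. The FOXO3 KO libraries stood in the same order as for Hspb1, with the library labelled FOXO3 KO 2 the highest. The WT libraries did not, for the sum was highest in WT 1 and Hspb1 in WT 2. How many of all genes showed this order of the FOXO3 KO libraries was not counted. Of the 7 markers 5 passed the filter (Upk3b, Wt1, Krt19, Lrrn4 and Upk1b). All 5 were higher in FOXO3 KO without overlap, as 7% of all genes tested were. The median log2 fold change of the 5 was 2.22, or 1.51 without the library labelled FOXO3 KO 2, and none had an FDR under 0.05. Msln, the marker that names these cells, was at 0 in WT 2, FOXO3 KO 1 and FOXO3 KO 3 and at most 0.224 CPM elsewhere. The part of these markers in the values of Hspb1 was not tested.

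The same order of the FOXO3 KO libraries, though not of the WT libraries, was seen in some other genes of protein folding. They were named for an unadjusted p under 0.05 in these same libraries, so the shared order is a description only. Dnajb13, named in the same way, stood in another order, at 3.86, 4.27 and 2.97 CPM across FOXO3 KO 1 to 3. Cryab, another small heat shock protein, was 1.77, 1.45 and 0.391 CPM across WT 1 to 3, against 2.41, 7.26 and 5.13 CPM across FOXO3 KO 1 to 3. Every FOXO3 KO library of Cryab was above every WT library, with a log2 fold change of 2.03 (edgeR quasi-likelihood test, unadjusted p = 0.0193), or 1.65 (unadjusted p = 0.0641) without the library labelled FOXO3 KO 2. Hspb8, a small heat shock protein of selective autophagy, was between 0.224 and 0.499 CPM in WT and 0.461, 2.55 and 0.690 CPM across FOXO3 KO 1 to 3. Its log2 fold change was 1.91 (edgeR quasi-likelihood test, unadjusted p = 0.0429) and fell to 0.82 (unadjusted p = 0.166) without the library labelled FOXO3 KO 2, so 1 library carried most of it. Serpinh1, the collagen chaperone HSP47 of the endoplasmic reticulum and a gene typical of matrix-making cells, was between 3.75 and 5.65 CPM in WT and 13.6, 41.7 and 26.0 CPM across FOXO3 KO 1 to 3. Its adjusted p was 0.714 from edgeR's quasi-likelihood test and 5.27e-05 from DESeq2, and it was among the genes that the study's authors took from these libraries to qPCR. Across the FOXO3 KO libraries the mesothelial sums given above stood in the same order as Cryab, Hspb8 and Serpinh1. The part of the mesothelial markers was not tested here either.

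**Figure D4:**
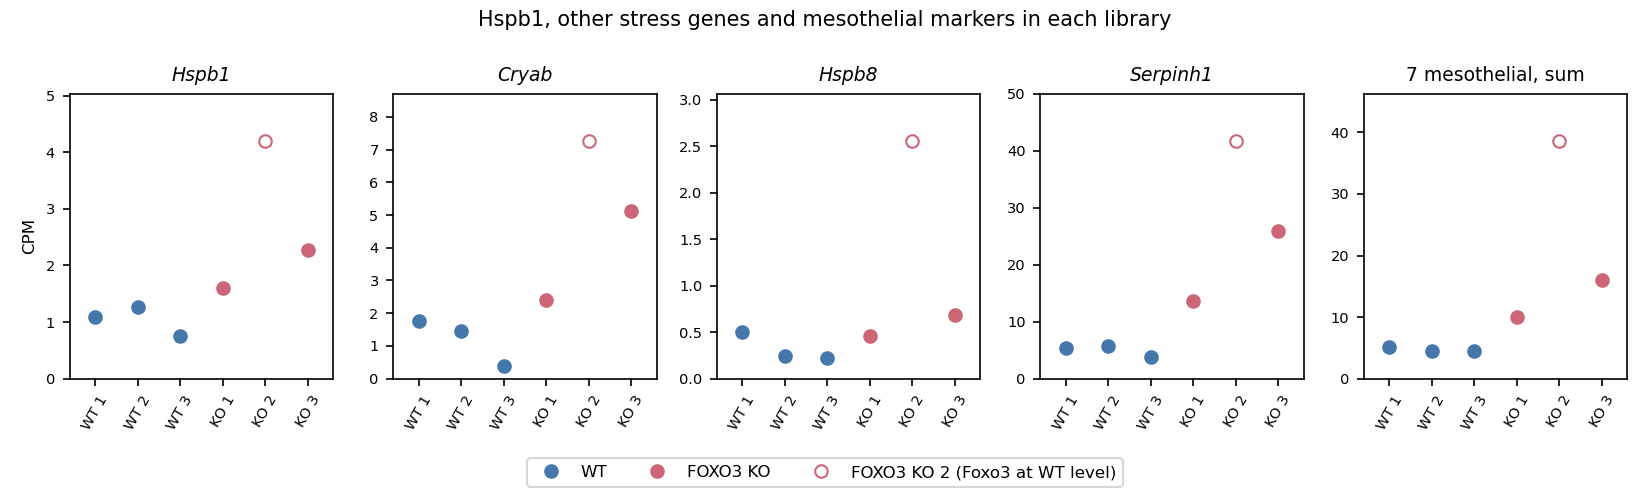
Hspb1, Cryab, Hspb8, Serpinh1 and the sum of 7 mesothelial markers in each library in CPM on linear axes, with the library labelled FOXO3 KO 2 as an open point. In each panel that library is the highest (4.20, 7.26, 2.55, 41.7 and 38.6 CPM), FOXO3 KO 3 is next and FOXO3 KO 1 follows, except that FOXO3 KO 1 is below WT 1 for Hspb8.

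The wider machinery comprised 127 other genes in lists by function, of which 116 passed the filter. The quasi-likelihood test called 0 of 116 in both sets of libraries at an adjusted p under 0.05, as it called 0% of all genes. Over all 6 libraries 5 passed an unadjusted p under 0.05 with a fold change over 1.5. Of these 4 were higher, Serpinh1, Cryab, Hspb8 and Dnajb13, against 3.28% of all genes, and 1 was lower, Dnajc28, against 0.999%. The likelihood ratio test and DESeq2 each called 1 of 116, Serpinh1, a share near the 0.698% and 0.794% of all genes that they called. By limma-voom 0 of 116 were called, beside 0% of all genes. Without the library labelled FOXO3 KO 2, DESeq2 called 2, Serpinh1 and Dnajc28, beside 0.666% of all genes. By the quasi-likelihood test 2 passed the unadjusted threshold, 1 higher (against 2.71% of all genes) and 1 lower (against 0.9%). The median log2 fold change of the 116 genes was 0.02, or 0.03 without that library, near that of all genes.

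Of the heat shock factors and their inhibitor, 4 of 6 genes were tested and 0 passed the unadjusted threshold. Of all genes, 3.28% were higher and 0.999% lower at that threshold. Hsf1, the master regulator, was between 24.3 and 34.4 CPM in WT and between 22.6 and 26.0 CPM in FOXO3 KO. The largest increase in the list was that of Hsbp1, which binds HSF1 trimers, with a log2 fold change of 0.19, and the largest decrease was that of Hsf4, at -0.49. Genes typical of the HSF1 response numbered 21, with the genes described here other than Hsp90ab1 among them. Their median log2 fold change was 0.12, or 0.16 without the library labelled FOXO3 KO 2. Higher at the unadjusted threshold were 3, Serpinh1, Cryab and Hspb1, against 3.28% of all genes. Without that library it was 1, Serpinh1, against 2.71% of all genes. Bag3, a co-chaperone that HSF1 induces, was 48.8, 45.2 and 21.0 CPM across WT 1 to 3, against 45.7, 40.8 and 36.4 CPM across FOXO3 KO 1 to 3. Its lowest values, like those of Hspa1a, were in WT 3 and FOXO3 KO 3. The 21 genes did not share this pattern, for Dnajb1 was highest in those libraries (45.5 and 42.6 CPM).

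Of the other HSP70 genes 10 of 11 were tested, with a median log2 fold change of 0.07. At the unadjusted threshold 0 passed, against 3.28% of all genes higher and 0.999% lower. Hspa1l, the neighbour of Hspa1a that is used mainly in testis, had the largest increase, 0.45. Hspa12a had the largest decrease, at -2.61, which came from 1 library, since it was 36.1 CPM in WT 3 and between 1.17 and 3.50 CPM in all others. Hsp90b1 of the endoplasmic reticulum and Trap1 of mitochondria, the other HSP90 genes, had log2 fold changes of 0.06 and -0.01. The intervals of both lay within 1.5-fold, as those of 37.2% of all genes tested did.

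Genes of J domain proteins, the partners of HSP70, were taken by symbols that start with Dnaja, Dnajb or Dnajc and a number, without Dnajb1. J domain genes under other symbols were not in this list. It held 42 genes, of which 38 were tested. Of these 27 had an interval within 1.5-fold, against 37.2% of all genes tested. At the unadjusted threshold 1 was higher, against 3.28% of all genes, and 1 was lower, against 0.999%. Dnajc28, a mitochondrial J domain protein, was 8.23, 7.62 and 9.09 CPM across WT 1 to 3, against 3.83, 6.42 and 3.72 CPM across FOXO3 KO 1 to 3. FOXO3 KO 1 and 3 were below 4 CPM and the library labelled FOXO3 KO 2 stood between them and WT, and the log2 fold change of Dnajc28 was -0.84 (edgeR quasi-likelihood test, unadjusted p = 0.0186), or -1.14 (unadjusted p = 0.00279) without that library. The study's authors list Dnajc28 (lower) and Serpinh1 (higher) among the genes that differed in their RNA-seq. They had chosen both from these libraries for qPCR, and they report significant changes of both by qPCR. Because of that choice, the values of these genes here are not independent evidence. Dnajb13, known from cilia and sperm, was between 1.88 and 2.72 CPM in WT and between 2.97 and 4.27 CPM in FOXO3 KO (edgeR quasi-likelihood test, unadjusted p = 0.0340, and 0.113 without the library labelled FOXO3 KO 2).

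All 22 co-chaperones of HSP70 and HSP90 were tested, and their median log2 fold change was 0.02. Of the 22, 16 had an interval within 1.5-fold, against 37.2% of all genes tested. Unc45a, a co-chaperone of HSP90 for myosin, was 26.8, 29.1 and 34.1 CPM across WT 1 to 3, against 22.1, 22.8 and 22.6 CPM across FOXO3 KO 1 to 3. It was lower in every FOXO3 KO library than in every WT library, as were 836 of the 15608 genes tested. The log2 fold change of Unc45a, -0.42 (edgeR quasi-likelihood test, unadjusted p = 0.0118, adjusted p = 0.714), was smaller than 1.5-fold. It kept that size, -0.42, without the library labelled FOXO3 KO 2.

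All 14 subunits of TRiC and prefoldin, which fold actin and tubulin, had an interval within 1.5-fold in both sets of libraries. Of all genes tested, 37.2% did so over all 6 libraries and 25.5% without the library labelled FOXO3 KO 2. All 10 other chaperones and proteases of mitochondria did so over all 6 libraries, and 6 of 10 without the library labelled FOXO3 KO 2. Over all 6 libraries the log2 fold changes of TRiC and prefoldin ran from -0.13 (Pfdn5) to 0.11 (Cct8). Those of the mitochondrial genes ran from -0.08 (Grpel2) to 0.15 (Hspa9, the mitochondrial HSP70). Without the library labelled FOXO3 KO 2 the ranges were -0.16 to 0.15 and -0.09 to 0.15. Of the 18 chaperones of the endoplasmic reticulum, 15 had an interval within 1.5-fold over all 6 libraries. Serpinh1 alone was higher at the unadjusted threshold, against 3.28% of all genes, and none was lower. Hspa5, or BiP, which rises in the unfolded protein response, was between 485 and 588 CPM in WT and between 507 and 567 CPM in FOXO3 KO, with overlap.

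**Figure D5:**
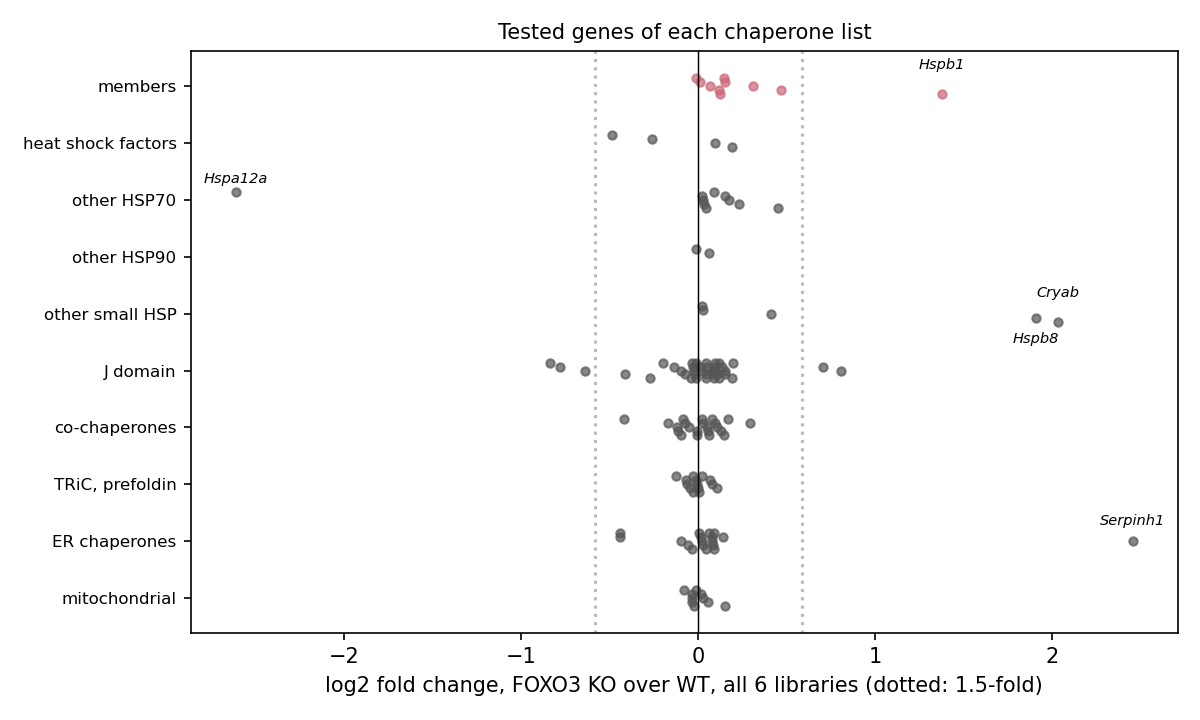
Log2 fold change of FOXO3 KO over WT over all 6 libraries for each tested gene of the 10 members (red) and the lists of other chaperones (grey; genes in 2 lists are drawn in both), with dotted lines at a fold change of 1.5. Genes beyond 1 on this scale are named: Hspb1 (1.38), Cryab (2.03), Hspb8 (1.91), Serpinh1 (2.46) and Hspa12a (-2.61), while TRiC and prefoldin lie between -0.13 and 0.11.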

How the data were processed

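The authors deposited estimated counts for 54648 gene symbols in 6 libraries (3 WT, 3 FOXO3 KO), without normalization. Whole numbers (within 0.01) made up 81.4% of them, and the rest were rounded. The submitters' processing notes name STAR 2.6.1d, kallisto 0.46.0, DESeq2 and mm10, with no role or order, and the annotation is not given in the sources used here. The authors had assigned reads to genes, so values of near-identical genes depend on how that was done. Reads were paired, of 76 bp. The labels do not say that replicates came from separate harvests, and the study's methods give n = 3.

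Groups were compared over all genes with edgeR 4.0.16 in R 4.3.3 (filterByExpr, TMM, glmQLFit and glmQLFTest, Benjamini-Hochberg). The thresholds, an FDR under 0.05 with a fold change over 1.5, were those of the study. Its methods do not name the test, so its counts of genes and those given here are not like measures. Intervals are 95% from the fitted log2 fold change and its SE. Permutation tests used log2(CPM + 0.5), where 0.5 is the pseudocount. The members, lists and rules were chosen with earlier results of these data known. The rule named all 10 members, Foxo3, Dnajc28, in each other list the genes with an unadjusted p under 0.05 (otherwise the largest increase and decrease), and the 5 genes most like the Hspa1 pair. Bag3, Hspa5, Hsf1 and the markers were named outside it, after their values were seen. Shared stretches, gene positions and transcript lengths came from GENCODE M21 on GRCm38, and promoters from RefSeq (Python 3.11.15). The test was checked on simulated counts. Alternatives were limma-voom (limma 3.58.1), DESeq2 1.42.0, other scalings and filters (at least 10 counts in 3 libraries), a replicate block, a covariate for Xist and each library left out. Fits without the library labelled FOXO3 KO 2 and WT 3 together, within low-Xist libraries, and of the summed Hspa1 pair were added after seeing the data. Each group had 3 libraries, and every member had at least 27 counts in every library.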

Additional observations from a re-analysis of the deposited data

How the results depend on the processing

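Over 20 alternatives for each of the 10 genes (21 for Hspa1a), 0 of the 10 were called under any. Most of these fits called no gene at all, so their 0 says little on the 10 genes. Without the library labelled FOXO3 KO 2, edgeR called 11 genes higher and 6 lower of 16217 with an Xist covariate. It called 3 higher and 1 lower of 15597 when WT 3 was left out too. The likelihood ratio test and DESeq2 also called genes, at the shares given below. The median log2 fold change of the 10 stayed above 0, from 0.06 to 0.20 as each library was left out. Hsp90aa1, Hsp90ab1, Hsph1, Hspe1, Hspd1, Hspa1a and Hspb1 kept a positive sign under every alternative. With an unadjusted p in place of the FDR, 1 of 10 members (Hspb1) and 5 of 116 other chaperone genes passed, against 3.28% of all genes higher and 0.999% lower. Other chaperone genes called numbered 1 by the likelihood ratio test (0.698% of all genes called), 1 by DESeq2 (0.794%) and 2 by DESeq2 without the library labelled FOXO3 KO 2 (0.666%). Hspb1 had an unadjusted p under 0.05 in 16 of 20 alternatives, and all of these kept the library labelled FOXO3 KO 2. No fit without that library gave Hspb1 an unadjusted p under 0.05. That p was 0.0599 by edgeR's quasi-likelihood test, 0.0564 by that test with an Xist covariate, 0.0504 by DESeq2 and 0.0746 by edgeR without WT 3 as well. The log2 fold change of Hspb1 was lowest, 0.73, without the library labelled FOXO3 KO 2 and WT 3. Signs changed for genes near 0. Dnajb1 was -0.020 with library size alone. Hspa8 was 0.0029 with no filter, 0.0083 by DESeq2 and 0.063 with an Xist covariate, the last 2 without the library labelled FOXO3 KO 2. With each library left out in turn, the log2 fold change ranged from -0.069 to 0.11 for Dnajb1, from -0.11 to 0.092 for Hspa8, from -0.024 to 0.52 for Hspa1b and from 0.18 to 0.89 for Hspa1a. Deviations of same-numbered libraries had correlations of 0.34, -0.06 and 0.57, beside 0.61 for WT 2 with FOXO3 KO 1. These values cannot settle whether the numbers pair the samples, since WT 3 and FOXO3 KO 3 also share high Xist. With a replicate block 0 members, 0 other chaperone genes and 0 of all 15608 genes tested were called. The median of the 10 was 0.14 with it, and Hspb1 was 1.30 (adjusted p = 0.700 from edgeR). Hspa1a was 0.46 with that block (unadjusted p = 0.0432, adjusted p = 0.733 from the same edgeR test). No other alternative gave Hspa1a an unadjusted p under 0.05. The cause of these shifts was not tested. Hspb1 had the fewest counts of the members, 27 to 115 a library; the part of depth in its error was not tested.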
